A study of Ictidomys tridecemlineatus with 31 samples.

Results

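The genes described here are 10 transcription factors of the circadian clock, Arntl, Clock, Npas2, Nr1d1, Nr1d2, Rora, Dbp, Tef, Hlf, and Nfil3, measured in kidneys of 13-lined ground squirrels across the hibernation year. They were taken by gene symbol from the 12863 genes of the table, where each of the 10 has 1 row (Arntl, also called Bmal1, included).

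The clock is a feedback loop of transcription. ARNTL pairs with CLOCK or with its paralog NPAS2, and the pair switches on genes that carry E-box elements, among them the Per and Cry repressors and the genes for the nuclear receptors NR1D1 and NR1D2 (REV-ERB alpha and beta). Those receptors repress Arntl, and RORA activates it from the same response elements. DBP, TEF, and HLF are related bZIP activators that carry the rhythm to output genes through D-box elements, and NFIL3 is a repressor that binds the same elements. In kidney, the clock is known for daily rhythms of sodium transport and filtration, and DBP, TEF, and HLF for control of detoxification genes.

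Polyadenylated RNA from a fragment of each frozen kidney was sequenced in 31 animals, untreated apart from implanted temperature devices, and body temperature set the group. Active-season groups were 5 summer active animals (SA, fattening in late summer, 3 female and 2 male) and 5 spring dark animals (SpD, 3 female and 2 male), which had ended torpor but were still housed in the dark hibernaculum. Hibernation groups were 5 entering torpor (Ent, 3 female and 2 male), 5 in early arousal and still cold (EAr, 2 female and 3 male), 6 later in the same rewarming (LAr, 3 female and 3 male), and 5 interbout aroused animals that were warm again (IBA, 3 female and 2 male). The age of the animals and the hour of day of each collection are not given in the sources used here. Libraries were made with different kits in 2 experiments. Experiment 1 held 9 animals, 3 each of IBA, Ent, and SpD, and experiment 2 held the other 22, so that SA, EAr, and LAr came from experiment 2 alone.

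Values are rlog expression on the log2 scale, from which the authors had removed the difference between experiments, and a difference of 1 is a fold of 2. The depth behind them is unknown, and levels of different genes are not compared, since rlog values are not per length. Every gene had the same mean in both experiments over the 31 animals (largest difference 7.11e-15), although the experiments held different states. Means of states in the table therefore carry any leftover difference between experiments, whereas the fitted differences below come from a model with a term for it. K113 (LAr) and K137 (SA), left out of the study's own test of differential expression, are given apart, and 29 animals were fitted. The 5 proximal tubule markers averaged 13.40 to 15.34 per kidney, as kidney should have, whereas the inner medullary marker Slc14a2 ran from 6.11 to 13.51 over the 31 kidneys. In the animals fitted, Slc14a2 was lowest and most even in LAr, at 6.52 ± 0.25 (SD, n = 5, range 6.31 to 6.91). Its means in the other states ran from 8.73 in Ent to 10.43 in SpD, with SDs of 1.35 to 2.07. Across states, Slc14a2 had an adjusted p of 0.0335 (limma F test). The bearing of the sampled part of the kidney on the 10 genes, those that peak in LAr included, was not tested. In bulk RNA, fewer cells of a type and less RNA per cell cannot be told apart.

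Across the 6 states, Nr1d1 and Nfil3 differed at q under 0.001 (limma F test, p adjusted over all genes, here q), or 2 of 10 genes beside 9.34% of all genes. Nfil3 had a q of 2.19e-06 and Nr1d1 a q of 5.73e-05. At q under 0.05, 6 of 10 differed, beside 46.1% of all genes. The other 4 of these were Hlf (q = 0.00139), Arntl (q = 0.0108), Dbp (q = 0.0287), and Nr1d2 (q = 0.0481). Rora (q = 0.173), Tef (q = 0.309), Clock (q = 0.396), and Npas2 (q = 0.619) did not pass either threshold. Nr1d1 and Nfil3 kept q under 0.001 in each of the 29 fits that left out 1 animal.

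**Figure D1:**
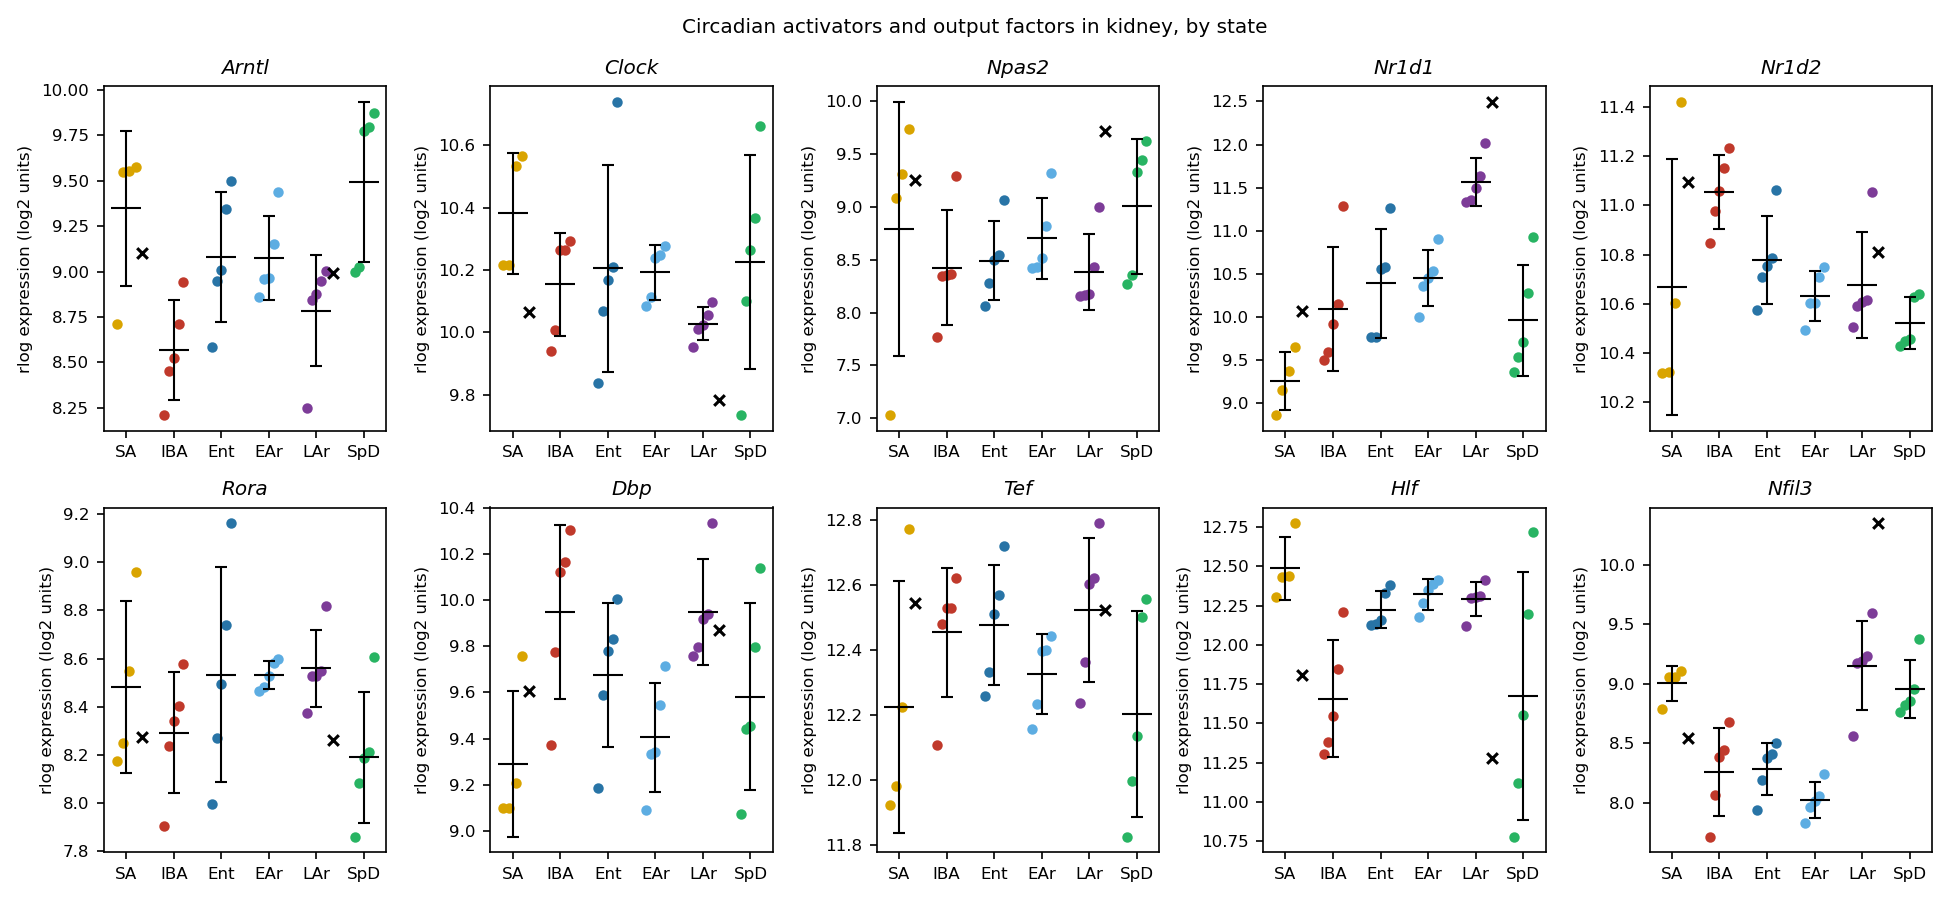
Each panel plots 1 gene, with rlog expression (log2 units) on its own vertical axis and the 6 states along the horizontal axis. Points are animals, bars are the mean ± SD of the 29 animals fitted, and crosses are K113 (LAr) and K137 (SA); all 5 LAr points of Nr1d1 lie above every other point but the cross of K113.

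Among the nuclear receptors, Nr1d1 had its peak in late arousal. The 5 LAr animals had rlog values of 11.33 (K109), 11.50 (K111), 12.01 (K112), 11.63 (K115), and 11.36 (K116). All 5 lay above the highest of the other 24 animals, an IBA animal at 11.29. Early arousing animals, sampled at an earlier point of the rewarming, had 10.91 (K154), 10.36 (K156), 10.45 (K157), 9.999 (K158), and 10.53 (K165). Interbout aroused animals had 11.29 (K1), 9.92 (K104), 9.59 (K171), 10.15 (K4), and 9.49 (K7). Apart from K1 and K4, they lay below all EAr animals. Summer active animals had 9.15 (K138), 9.37 (K139), 8.86 (K140), and 9.65 (K141), the lowest group. Entrance animals ran from 9.76 to 11.26 with a median of 10.56, and spring dark animals from 9.35 to 10.93 with a median of 9.71.

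From LAr to IBA, Nr1d1 fell by 1.85 on the log2 scale (SE 0.32, 95% interval -2.51 to -1.19, 3.60-fold, limma q = 0.000541). LAr minus EAr was fitted at 1.08 (SE 0.29, 2.11-fold) with a q of 0.118, which missed the threshold although the groups did not overlap. Over the season, the mean of the 4 hibernation states was higher than that of SA and SpD by 1.01 (SE 0.18, 2.02-fold, limma q = 0.000179). That mean includes the LAr peak. For IBA, the fitted differences were small, at 0.44 for IBA minus SA (limma q = 0.356) and -0.13 for SpD minus IBA (q = 0.818). The order of the means was LAr, EAr, Ent, IBA, SpD, and SA, and only the gaps from LAr to EAr and from SpD to SA were larger than the SD of both neighbors. These are gaps of plain means. With the experiment term, SA minus SpD was fitted at only -0.31 (95% interval -1.01 to 0.38, limma q = 0.556). In animals of the same state, experiment 2 lay below experiment 1 for Nr1d1 (coefficient -0.62, q = 0.827), so the plain difference of the IBA and LAr means was smaller, at -1.48 (limma q = 0.00473 with no experiment term). The fall from LAr to IBA lost its call without any of 9 animals taken singly, K104, K171, K4, K7, K111, K112, K115, K116, or K84, with fitted differences of -1.90 to -1.71 and q of 0.00105 to 0.00249.

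Nr1d2, the paralog, did not share that peak. Its highest group was IBA, with values of 11.15 (K1), 11.23 (K104), 11.06 (K171), 10.98 (K4), and 10.85 (K7). Spring dark animals were lowest on average, at 10.63 (K130), 10.64 (K3), 10.45 (K6), 10.43 (K84), and 10.46 (K9). These groups did not overlap, and SpD minus IBA was fitted at -0.53 (SE 0.14, limma q = 0.0177), short of the 0.001 threshold. LAr and EAr means were 10.68 ± 0.22 and 10.63 ± 0.10 (SD, n = 5 each), and their fitted difference was 0.03 with a 95% interval of -0.27 to 0.33. Of the SA animals, K139 stood at 11.42, higher than any other of the 29 animals, whereas K138, K140, and K141 had 10.60, 10.32, and 10.32. Without K139, IBA minus SA for Nr1d2 went from 0.44 (SE 0.17, limma q = 0.0621) to 0.70 (SE 0.12, q = 0.000609), and the test across states from q = 0.0481 to 0.00094. Of the 29 fits that left out 1 animal, only that 1 passed 0.001 across states for Nr1d2. Without K104, IBA minus SA was 0.41 (limma q = 0.154), and the test across states had a q of 0.135. SpD minus IBA had a q of 0.0517 without K84 and of 0.207 in experiment 2 alone (limma).

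Rora, which acts on the elements that NR1D1 and NR1D2 occupy, ran from 7.86 (K6, SpD) to 9.16 (K8, Ent). Its state means lay between 8.19 ± 0.27 in SpD and 8.56 ± 0.16 in LAr (SD, n = 5 each), and the 5 EAr animals were nearly level, from 8.47 to 8.60. Both extremes were animals of experiment 1. Of the transitions fitted, SA minus SpD had the largest difference for Rora, 0.42 with a 95% interval of 0.0004 to 0.83 (limma q = 0.171).

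Among the activators, Arntl was highest in the active season and lowest in interbout arousal. Spring dark animals had rlog values of 9.80 (K130), 8.998 (K3), 9.87 (K6), 9.77 (K84), and 9.02 (K9). Interbout aroused animals had 8.94 (K1), 8.52 (K104), 8.21 (K171), 8.45 (K4), and 8.71 (K7), and every one of them lay below every SpD animal. SpD values fell into 3 high and 2 lower animals, the 3 being above all 24 animals of the other states. Summer active animals had 9.55 (K138), 8.71 (K139), 9.55 (K140), and 9.58 (K141), of which K139 alone was low. Entrance, early, and late arousal lay between, with medians of 9.01, 8.96, and 8.87 and ranges of 8.59 to 9.499, 8.86 to 9.44, and 8.25 to 9.01.

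SpD minus IBA for Arntl was fitted at 0.93 (SE 0.21, 95% interval 0.48 to 1.37, 1.90-fold, limma q = 0.00661). IBA minus SA was -0.79 (SE 0.25, q = 0.026), and hibernation minus active -0.54 (SE 0.14, q = 0.00362). None of these passed 0.001. Without K139, hibernation minus active was -0.66 (limma q = 0.00069), past the threshold. Of the 29 fits that left out 1 animal, only that 1 passed for Arntl in this comparison. The q was highest without K138, at 0.0125 (limma). IBA minus SA for Arntl had a q of 0.094 without K171 (limma), past neither threshold. No gap between neighboring states in the order SpD, SA, Ent, EAr, LAr, IBA was larger than the SD of both neighbors.

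Clock and Npas2, the partners of Arntl, did not pass in any comparison at either threshold in the 29 animals. Clock ran from 9.73 (K3, SpD) to 10.74 (K8, Ent), and its state means from 10.03 ± 0.05 in LAr (SD, n = 5) to 10.38 ± 0.19 in SA (SD, n = 4). The LAr animals were the tightest of the groups for Clock, between 9.95 and 10.10. In experiment 2 alone, Clock had a q of 0.00435 across states, and its SpD minus IBA was -0.23 in experiment 1 and 0.52 in experiment 2 (limma test of the difference, q = 0.115). Npas2 had the widest residual SD of the 10 genes, 0.64 after state, sex, and experiment. Its SA animals had 9.09 (K138), 7.03 (K139), 9.74 (K140), and 9.31 (K141), so that the lowest and the highest value among the 29 animals came from the same group. Its SpD mean was 9.005 ± 0.640 and its LAr mean 8.38 ± 0.36 (SD, n = 5 each), and the 95% interval of SpD minus IBA ran from -0.21 to 1.37. Without K139, Npas2 in hibernation minus active went from -0.40 (limma q = 0.214) to -0.69 (q = 0.00994).

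Nfil3, the D-box repressor, had the lowest q of the 10 genes and stepped up within the rewarming. Early arousing animals had 8.24 (K154), 7.97 (K156), 7.83 (K157), 8.02 (K158), and 8.06 (K165). Late arousing animals had 8.56 (K109), 9.19 (K111), 9.60 (K112), 9.18 (K115), and 9.23 (K116), all above all EAr animals. Interbout aroused animals had 8.45 (K1), 7.71 (K104), 8.07 (K171), 8.38 (K4), and 8.68 (K7), which overlapped with LAr only through K7 and K109. Summer active animals had 9.06 (K138), 9.06 (K139), 9.11 (K140), and 8.79 (K141), and did not overlap with IBA. Entrance animals ran from 7.94 to 8.50 and spring dark animals from 8.76 to 9.38. High values were thus seen in LAr, SA, and SpD, and low values in Ent, IBA, and EAr.

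Nfil3 rose from EAr to LAr by 1.13 (SE 0.14, 95% interval 0.84 to 1.43, 2.19-fold, limma q = 3.16e-05) and, from LAr to IBA, fell by 1.12 (SE 0.16, 2.18-fold, limma q = 6.38e-05). It was lower in IBA than in SA (coefficient -0.98, SE 0.17, 1.97-fold, limma q = 0.000312), and lower in hibernation than in the active season (coefficient -0.55, SE 0.09, limma q = 8e-05). SpD minus IBA was 0.70 (SE 0.14, limma q = 0.00268), short of 0.001. The rise from EAr to LAr stayed past the threshold in all 29 fits that left out 1 animal. With animal weights (q = 0.0014) and in experiment 2 alone (q = 0.00272), IBA minus SA was not past the threshold, nor was IBA minus LAr in experiment 2 alone (-1.26, q = 0.00194). IBA minus SA also lost its call without K138, K139, K140, or K104 taken singly (-0.96 to -0.84, q of 0.00127 to 0.00362), and IBA minus LAr without K104 (-0.99, q = 0.00104). In all 31 animals, IBA minus SA was -0.88 (q = 0.0137) and hibernation minus active -0.46 (q = 0.00515), neither past the threshold.

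**Figure D2:**
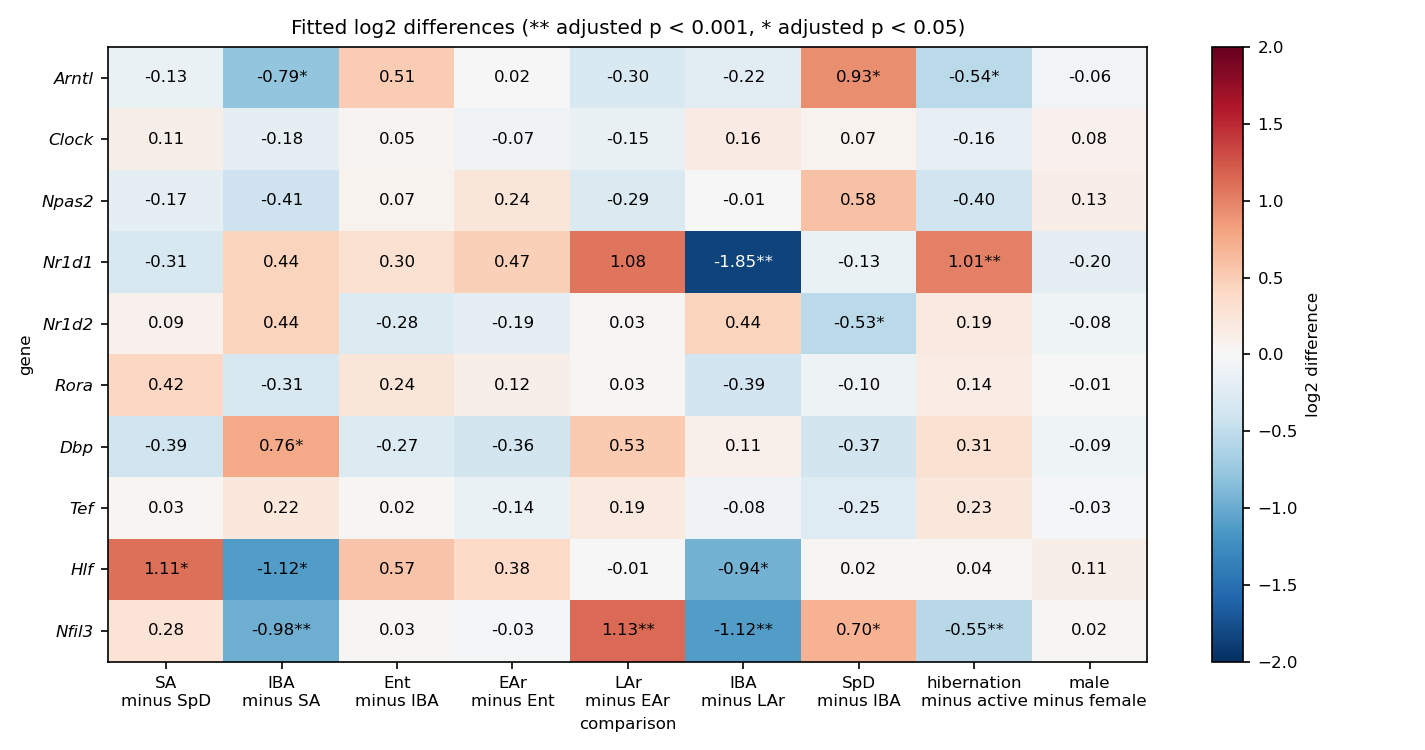
Fitted log2 differences of the 10 genes (rows) in the 9 comparisons (columns), from limma in 29 animals, with color from blue (lower in the first-named group) to red (higher). Asterisks mark the adjusted p as the title says; Nr1d1 in IBA minus LAr has the largest difference, -1.85, and Nfil3 is marked in 5 comparisons.

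Of the D-box activators, Hlf differed most between states, and IBA and SpD held its low values. Interbout aroused animals had 12.21 (K1), 11.30 (K104), 11.55 (K171), 11.84 (K4), and 11.38 (K7). Spring dark animals spread widest, with 11.12 (K130), 12.19 (K3), 11.56 (K6), 10.78 (K84), and 12.72 (K9). Summer active animals had 12.31 (K138), 12.43 (K139), 12.78 (K140), and 12.44 (K141), all above all IBA animals. The 15 animals of Ent, EAr, and LAr lay within 12.12 to 12.42. IBA minus SA was fitted at -1.12 (SE 0.23, 2.18-fold, limma q = 0.00134), SA minus SpD at 1.11 (SE 0.23, q = 0.00711), and IBA minus LAr at -0.94 (SE 0.22, q = 0.00532), all short of 0.001. SA minus SpD had a q of 0.0676 without K130. With no experiment term, Hlf in IBA minus SA was -0.82 (limma q = 0.0168), in SA minus SpD 0.80 (q = 0.0452), and in IBA minus LAr -0.63 (q = 0.062). In all 31 animals, IBA minus LAr had a q of 0.0591 (limma).

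The means of the proximal tubule markers did not overlap between SA (15.01 to 15.34) and IBA (13.63 to 14.54). Their mean was 15.23 ± 0.15 in SA (SD, n = 4), 14.21 ± 0.44 in IBA, 14.50 ± 0.42 in Ent, 14.80 ± 0.22 in EAr, 14.57 ± 0.18 in LAr, and 14.67 ± 0.79 in SpD (SD, n = 5 each). Hlf means were 12.22 in Ent, 12.29 in LAr, and 11.67 in SpD, whose kidneys had marker means of 13.40 to 15.21. K130 and K104 were the lowest of the 29 kidneys at 13.40 and 13.63. All 5 of the listed proximal tubule genes were measured. With that mean as a further covariate, an alternative chosen after the data had been seen, Hlf in IBA minus SA was -0.56 (limma q = 0.104), in IBA minus LAr -0.68 (q = 0.0218), and in SA minus SpD 0.76 (q = 0.0399). K84, K171, and K6 had Hlf at 10.78, 11.55, and 11.56 with marker means of 14.39, 14.54, and 15.14, and K8 had Hlf at 12.13 with a marker mean of 13.97. The marker covariate cannot tell fewer proximal tubule cells from less RNA per cell. The part of kidney composition in the Hlf values was therefore not tested. Within experiment 1, SpD minus IBA for Hlf was 0.39 and within experiment 2 it was -0.55 (limma test of the difference, q = 0.114). In experiment 2 alone, SA minus SpD was 1.54 (limma q = 3.88e-06), with SpD held by K130 and K84 only. Of the SpD kidneys, these had the lowest marker means (13.40 and 14.39) and the highest Slc14a2 (12.99 and 11.82). The SpD animals of experiment 1 had Hlf values of 12.19 (K3), 11.56 (K6), and 12.72 (K9).

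**Figure D3:**
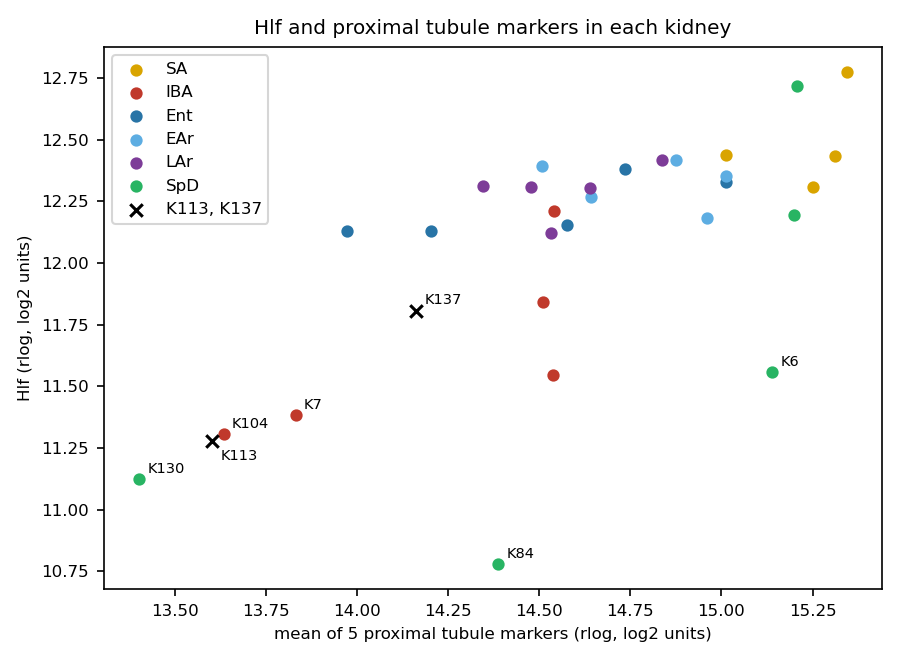
Hlf (vertical, rlog in log2 units) against the mean of 5 proximal tubule markers (horizontal, rlog in log2 units) in each of 31 kidneys, colored by state, with crosses for K113 and K137. K130, K113, K104, and K7 have marker means under those of the other animals and Hlf values of 11.12 to 11.38, whereas K84, K6, and the unnamed IBA animal at 11.55 (K171) have low Hlf at marker means of 14.39 to 15.14.

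Dbp had equal means of 9.95 in IBA and LAr (SD 0.38 and 0.23, n = 5 each), its highest states. IBA animals had 10.17 (K1), 10.31 (K104), 10.12 (K171), 9.78 (K4), and 9.37 (K7). Summer active animals had 9.10 (K138), 9.76 (K139), 9.21 (K140), and 9.10 (K141). K7 lay below K139, and the groups overlapped. IBA minus SA was fitted at 0.76 (SE 0.23, 1.69-fold, limma q = 0.0183), which without K104 was 0.67 (q = 0.075). Late arousing animals, at 9.76 to 10.34, lay above all EAr animals, at 9.09 to 9.71, and that difference was 0.53 (SE 0.19, q = 0.406). Tef, whose state means lay between 12.20 ± 0.32 in SpD and 12.52 ± 0.22 in LAr (SD, n = 5 each), did not pass in any comparison. Its 29 values ran from 11.82 (K6, SpD) to 12.79 (K109, LAr).

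By comparison, calls at q under 0.001 were few. Nfil3 was called in IBA minus SA (1 of 10 genes, 3.15% of all genes) and in LAr minus EAr (1 of 10, 0.295%). Nr1d1 and Nfil3 were called in IBA minus LAr (2 of 10, 1.43%) and in hibernation minus active (2 of 10, 9.73%). With limma, 0 of 10 passed in SA minus SpD (0.0544% of all genes), Ent minus IBA (0.746%), EAr minus Ent (0.132%), SpD minus IBA (1.25%), and male minus female (0.0233%). At an unadjusted p under 0.05, these comparisons held 2, 2, 0, 3, and 0 of the 10 genes, beside 29.1%, 29.4%, 7.16%, 26.6%, and 6.41% of all genes.

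At q under 0.05, 4 of 10 passed in IBA minus SA (Arntl, Dbp, Hlf, and Nfil3, beside 22.9% of all genes) and 3 of 10 in IBA minus LAr (Nr1d1, Hlf, and Nfil3, 18%). SpD minus IBA had 3 of 10 (Arntl, Nr1d2, and Nfil3, 11.9%) and hibernation minus active 3 of 10 (Arntl, Nr1d1, and Nfil3, 33.4%). Hlf alone passed in SA minus SpD (1 of 10, 10.5%), and Nfil3 alone in LAr minus EAr (1 of 10, 0.575%). Groups did not overlap for Hlf and Nfil3 in IBA minus SA (18.8% of all genes), for Nr1d1, Dbp, and Nfil3 in LAr minus EAr (6.84%), for Nr1d1 in IBA minus LAr (13.7%), and for Arntl, Nr1d2, and Nfil3 in SpD minus IBA (6.51%). The median absolute difference of the 10 genes was 0.44 in IBA minus SA (0.18 over all genes), 0.31 in SpD minus IBA (0.12), and 0.24 in LAr minus EAr (0.08). IBA, SA, and LAr animals enter several of these comparisons, which are therefore not independent.

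The 10 genes varied more between animals of a state than most genes did. Their residual SD, after state, sex, and experiment, exceeded that of 76.8% (Clock) to 98.7% (Npas2) of all genes. It was 0.64 for Npas2, 0.48 for Nr1d1, and 0.36 for Arntl, beside a median of 0.16 over all genes. By state, the median SD of the 10 was lowest in EAr, at 0.14 (0.10 for all genes), and highest in SpD, at 0.37 (0.17). SA (0.35 beside 0.14), IBA (0.32 beside 0.15), and Ent (0.32 beside 0.17) were nearly as wide as SpD, and LAr (0.23 beside 0.10) lay between. Hlf had the widest SD in SpD (0.79), Nr1d1 in IBA (0.72) and Ent (0.63), and Npas2 in SA (1.21). Of 50 neighboring pairs of states in the orders of the means, 5 had a gap above both SDs, 2 in Nr1d1, 2 in Nr1d2, and 1 in Nfil3. Gaps of plain means carry any leftover difference between experiments.

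**Figure D4:**
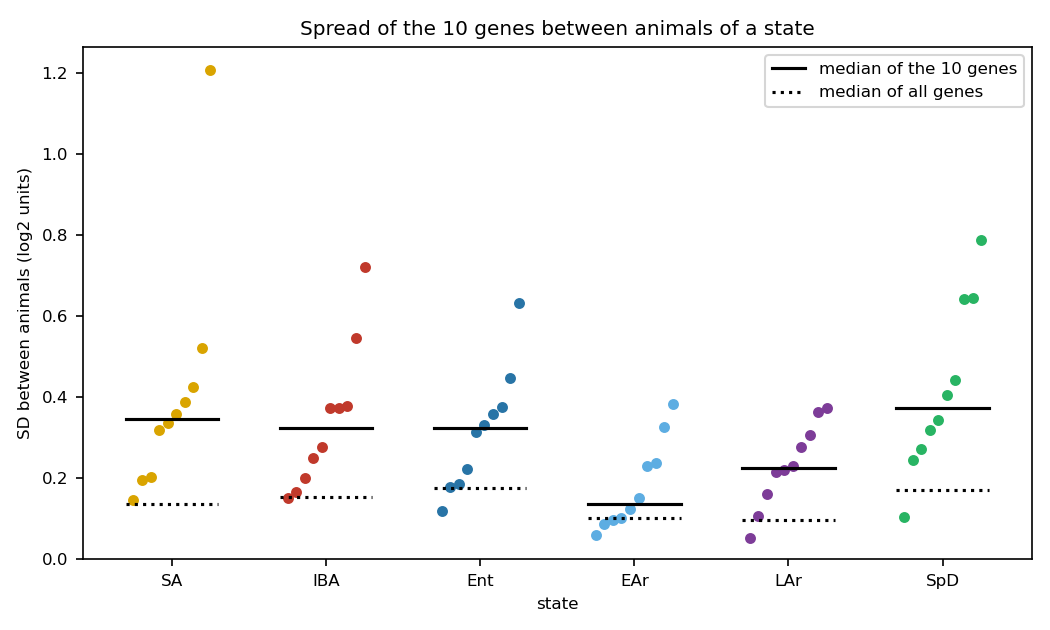
SD between animals (vertical, log2 units) of each of the 10 genes (points) in each state (horizontal), with the median of the 10 genes as a solid line and that of all genes as a dotted line. The solid line is lowest in EAr (0.14) and highest in SpD (0.37), and it lies above the dotted line in each state.

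This variation within states was shared among some of the genes, a relation looked for after the values had been seen. For each animal and gene, the deviation from the fitted value for its state, sex, and experiment was taken, and all 45 pairs of genes were correlated over 29 animals, with 100000 permutations within states and 2-sided p adjusted over the 45 pairs. For 9 pairs, 5 positive and 4 negative, both Pearson's r and Spearman's rho had an adjusted p under 0.05. Arntl and its partner Npas2 deviated together (r = 0.79, adjusted permutation p = 0.0018, rho = 0.71, adjusted p = 0.0043). Arntl and Tef deviated in opposite directions (r = -0.83, adjusted permutation p = 0.0013, rho = -0.76, adjusted p = 0.0027), as did Arntl and Dbp (r = -0.65, adjusted p = 0.0092, rho = -0.58, adjusted p = 0.029). Npas2 and Tef were likewise opposed (r = -0.73, adjusted permutation p = 0.0092, rho = -0.58, adjusted p = 0.032). Nr1d2, Dbp, and Tef deviated together, at r = 0.73 for Nr1d2 with Tef (adjusted permutation p = 0.0024, rho = 0.72, adjusted p = 0.0027), 0.72 for Dbp with Tef (adjusted p = 0.0024, rho = 0.68, adjusted p = 0.0043), and 0.61 for Nr1d2 with Dbp (adjusted p = 0.0036, rho = 0.69, adjusted p = 0.0043).

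The other pairs were Clock with Rora (r = 0.72, adjusted permutation p = 0.0094, rho = 0.66, adjusted p = 0.011) and Dbp with Nfil3 (r = -0.55, adjusted permutation p = 0.01, rho = -0.53, adjusted p = 0.044). Arntl with Nr1d2 gave r = -0.60 (adjusted permutation p = 0.03) but a rho of -0.46 with an adjusted p of 0.085. Nr1d1 was in none of the 9 pairs, and its r with Arntl was -0.12 (adjusted permutation p = 0.66, rho = -0.03, adjusted p = 0.9). Nr1d2 with Nfil3 failed the other way, with rho = -0.58 (adjusted permutation p = 0.015) but r = -0.38 (adjusted p = 0.081). Its r was -0.73 without K139 and K141, the animals farthest from the median of the Nr1d2 deviations. Raw permutation p for the 9 pairs ran from 3e-05 for Arntl with Tef to 0.0021 for Dbp with Nfil3.

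Set beside all genes, 0% correlated with Arntl, or with Tef, as far from 0 as these do with each other. For Clock with Rora, 3.81% of genes were as far from 0 with Clock and 1.24% with Rora, and for Dbp with Nfil3, 4.44% with Dbp and 0.13% with Nfil3. In the other 6 pairs, these shares ran from 0.0078% (Arntl with Npas2, for Arntl) to 1.75% (Nr1d2 with Dbp, for Dbp).

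For Arntl with Tef, r was -0.78 without K109 and K139, the animals farthest from the median of the Arntl deviations. It was -0.80 in experiment 1 (n = 9) and -0.86 in experiment 2 (n = 20). Arntl with Npas2 gave 0.77 without those animals, 0.73 in experiment 1, and 0.83 in experiment 2. For every pair, the 2 farthest animals were judged on the deviations of the first-named gene alone. Without its 2 farthest animals, Npas2 with Tef gave -0.75, Nr1d2 with Tef 0.62, Dbp with Tef 0.66, Nr1d2 with Dbp 0.58, Arntl with Dbp -0.57, Clock with Rora 0.67, and Dbp with Nfil3 -0.49. Within experiments 1 and 2, r was -0.50 and -0.89 for Npas2 with Tef, 0.80 and 0.83 for Nr1d2 with Tef, 0.79 and 0.65 for Dbp with Tef, 0.54 and 0.81 for Nr1d2 with Dbp, -0.66 and -0.66 for Arntl with Dbp, 0.74 and 0.70 for Clock with Rora, and -0.72 and -0.50 for Dbp with Nfil3. All 9 pairs thus kept their sign in both experiments. K139 had low Arntl (8.71) and Npas2 (7.03) with high Nr1d2 (11.42), Dbp (9.76), and Tef (12.77) for an SA animal, and K109 had low Arntl (8.25) with high Nr1d2 (11.05), Dbp (10.34), and Tef (12.79) for an LAr animal.

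**Figure D5:**
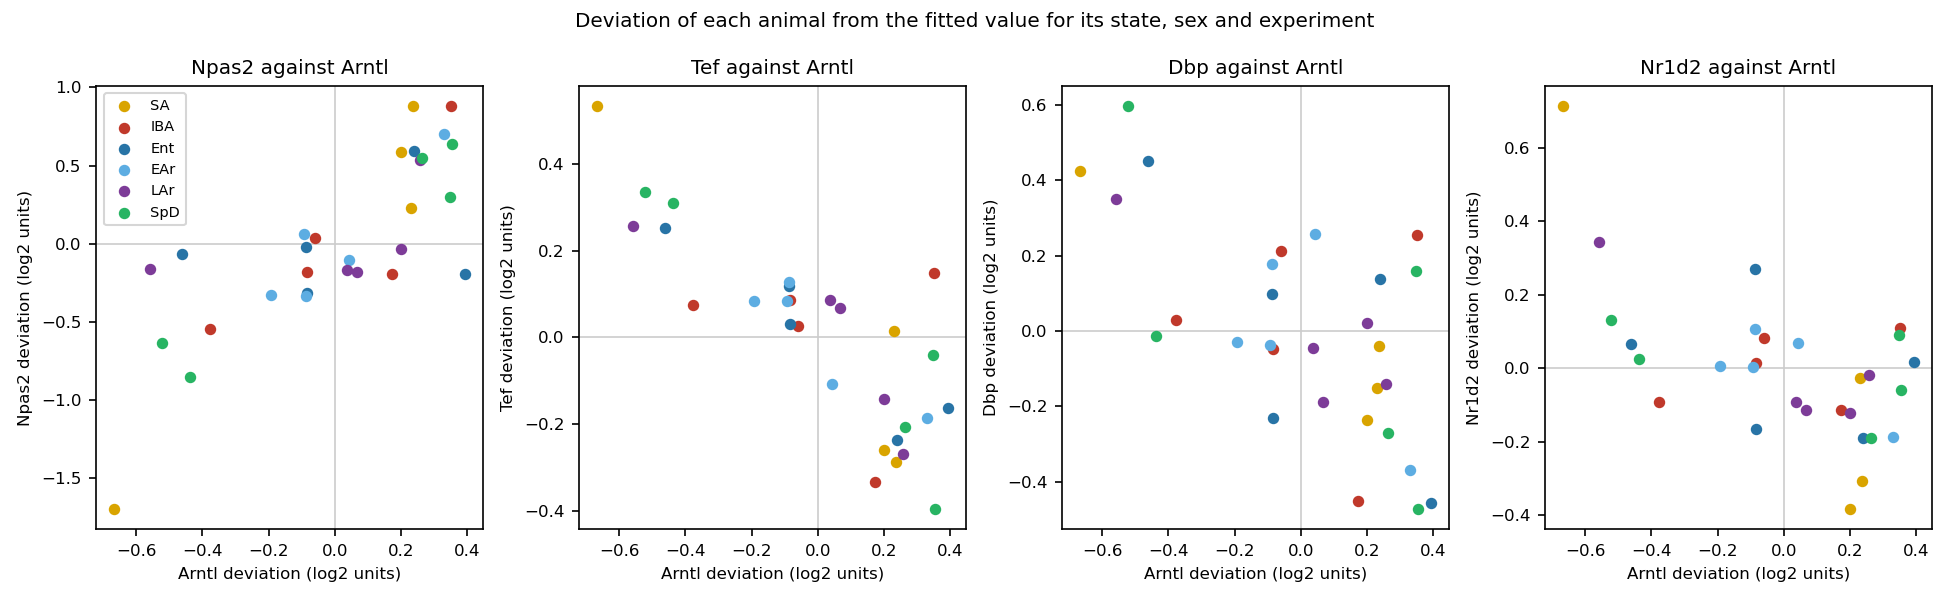
Deviation of Npas2, Tef, Dbp, and Nr1d2 (vertical, log2 units) against that of Arntl (horizontal, log2 units) in 29 animals, colored by state, each taken from the fitted value for state, sex, and experiment. Npas2 is higher where Arntl is higher (r = 0.79), whereas Tef (r = -0.83), Dbp (r = -0.65), and Nr1d2 (r = -0.60) run the other way.

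The animals kept apart differed from their groups in some of the genes. K113 lay above all 5 other LAr animals in Nr1d1 (12.50), Nfil3 (10.35), and Npas2 (9.72). It lay below all of them in Clock (9.78), Rora (8.26), and Hlf (11.28), and within their range in Arntl, Nr1d2, Dbp, and Tef. K137 lay above the 4 other SA animals in Nr1d1 (10.07) and below them in Clock (10.06), Hlf (11.81), and Nfil3 (8.54), and within their range in the other 6 genes. Both had low proximal tubule means (13.60 and 14.16) and high Slc14a2 (12.87 and 13.51), and the part of kidney composition in their values was not tested. K130 (SpD), with a proximal tubule mean of 13.40 and Slc14a2 at 12.99, was above the other SpD animals in Clock (10.66) and within their range in the other 9 genes.

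Related genes were taken from lists written for this purpose. Of 14 repressors, kinases, and ubiquitin ligases of the clock, 12 were in the table. Ciart (q = 1.89e-08) and Bhlhe41 (q = 0.000119) differed across states at q under 0.001 (limma), or 2 of 12 beside 9.34% of all genes. Ciart, a repressor of CLOCK and ARNTL, had an LAr mean of 8.70 ± 0.31 and an EAr mean of 6.56 ± 0.39 (SD, n = 5 each), a rise of 2.18 (limma q = 1.76e-07), and it fell to 6.57 ± 0.49 in IBA (coefficient -2.59, q = 1.08e-07). In LAr minus EAr and in IBA minus LAr, Ciart was the 1 gene of 12 called, beside 0.295% and 1.43% of all genes. Ciart was highest in LAr, as were Nr1d1 and Nfil3. The authors' filter kept genes with rlog of at least 7 in most animals of some group. In the values used here, Ciart met that through LAr alone (8.27 to 9.05), and its mean in every other state was under 7. Its peak and calls in LAr are therefore no separate support for the LAr peaks of Nr1d1 and Nfil3. Over the season, Per3 (0.59, q = 0.000948), Ciart (0.74, q = 0.000129), and Bhlhe41 (0.73, q = 1.18e-05) were higher in hibernation, or 3 of 12 beside 9.73% of all genes, and none of the 12 was called lower. Cry1 was lower at q = 0.00182 (coefficient -0.42), short of the threshold. For Ciart, the Ent mean was 6.90 ± 0.56 and the SpD mean 6.73 ± 0.59 (SD, n = 5 each), so that among the hibernation states only LAr stood well above SpD. Csnk1d, a kinase of the PER proteins, fell from IBA to Ent (coefficient -0.35, limma q = 0.000835), 1 of 12 called beside 0.746% of all genes.

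Of 10 coregulators and further RORs, 9 were in the table, and limma called 0 at q under 0.001 in any comparison. Across states, 4 of 9 had q under 0.05 (limma), beside 46.1% of all genes. All 9 listed output genes of the clock were in the table. The glucocorticoid-induced Tsc22d3 (coefficient -0.81, limma q = 0.000627) and the proximal sodium/hydrogen exchanger gene Slc9a3 (coefficient -0.61, limma q = 0.000364) were lower in hibernation than in the active season, 2 of 9 beside the same 9.73%, and the other 7 were not called. Tsc22d3 means were 10.97 ± 0.85 in SpD and 9.73 ± 0.12 in EAr, and Slc9a3 means 11.61 ± 0.28 in SpD and 10.93 ± 0.47 in Ent (SD, n = 5 each).

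Among all other genes with a symbol, the patterns most like that of Nr1d1 over the 29 animals were those of Fzd8 (Pearson's r = 0.864), Hnrnpdl (r = 0.862), and Ces4a (r = 0.836). Those most like that of Nfil3 were Naif1 (r = 0.838), Zfp36 (r = 0.822), and Nr4a1 (r = 0.820). These values are a description over animals that share states and experiments.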

How the data were processed

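RNA of kidney from 31 animals was measured by RNA-Seq. The authors trimmed reads with cutadapt, removed mitochondrial reads (hisat2), and quantified transcripts of the HiC_Itri_2 genome with Salmon. The deposited values are log2-scale rlog values per gene, made by the authors with DESeq2 after a filter on low rlog values, with the experiment difference removed by limma. Counts are not in the table used here, so depth is unknown, and limma 3.58.1 in R 4.3.3 took the place of the study's count test. It was fitted to 12863 genes in 29 animals on state, sex, and experiment, with a variance trend on intensity. P values were adjusted over genes (Benjamini-Hochberg) comparison by comparison, at the study's threshold of 0.001. The degree of freedom that the authors' correction used is not allowed for. The fit was tested on simulated data. Plots were made in Python 3.11.15 (matplotlib 3.10.9).

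The 10 genes, related lists, and markers were chosen with earlier results of these data known. Text values follow a rule of all 10 members, related genes past the threshold, and the 3 genes most alike each member called across states. Each animal is 1 replicate, named by its label. All 10 symbols matched the RefSeq annotation of mIctTri1.hap1 (Arntl as Bmal1), another assembly than the authors', so positions and sequences are not given. Alternatives were all 31 animals, experiment 2 alone, omission of each animal, of the experiment term, or of the trend, weighting of animals, a minimum mean of 8 per gene, centering on medians, a threshold of 0.05, and a marker covariate.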

Additional observations from a re-analysis of the deposited data

Results flagged for a closer look

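In 60 groups of 4 or 5 animals (10 genes in 6 states), 6 had an animal farther from the rest than Dixon's 95% limit allows, where chance gives about 1 in 20 groups. K139 (SA) accounted for 2 of them, with Arntl at 8.71 (the other SA animals 9.55 to 9.58) and Dbp at 9.76 (9.10 to 9.21). K109 (LAr) accounted for 2, with Arntl at 8.25 (8.85 to 9.01) and Nr1d2 at 11.05 (10.51 to 10.62). K7 (IBA) had Tef at 12.11 (12.48 to 12.62), and K141 (SA) had Nfil3 at 8.79 (9.06 to 9.11). In K139 and K109 alike, the low gene was Arntl and the high gene Dbp or Nr1d2. No test of a difference between experiments passed among 20 run (10 genes in Ent minus IBA and SpD minus IBA, smallest q 0.114, limma).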

How the results depend on the processing

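Differences with q under 0.05 kept their direction under every alternative. Of those recomputed values, 518 kept their side of the 0.001 threshold, 24 lost the call, and 13 gained it. Differences that did not pass 0.05 could turn: without K139, SA minus SpD went from -0.13 to 0.11 for Arntl and from -0.17 to 0.45 for Npas2, and without K130, SpD minus IBA for Clock from 0.07 to -0.04. Of the counts out of 10 genes, IBA minus SA went from 1 to 0 in all 31 animals, with no experiment term, and with the proximal tubule markers as a covariate (added after seeing the data). IBA minus LAr went from 2 to 0 with no experiment term and to 1 with that covariate. Hibernation minus active went from 2 to 1 in all 31 animals and to 5 in experiment 2 alone. There, SA minus SpD went from 0 to 1, with 2 SpD animals. Shares of all genes called in these alternative fits are not given, so these counts are not read as particular to the 10 genes. Equal counts can hold other genes. With animal weights and in experiment 2 alone, Hlf was called in IBA minus SA (q = 0.000607 and 0.000188) and Nfil3 was not (0.0014 and 0.00272), and in experiment 2 alone Hlf was called in IBA minus LAr (0.000598) and Nfil3 was not (0.00194). At a threshold of 0.05, the counts were 6 across states, 1 in SA minus SpD, 4 in IBA minus SA, and 3 in SpD minus IBA. Leaving out 1 animal gave 0 to 2 in IBA minus SA (0 without K138, K140, or K104, and 2 without K1, K167, or K9), 0 to 2 in IBA minus LAr (0 without K104), and 0 to 1 in SpD minus IBA (1 without K109). Causes of these moves were not tested, though fits with fewer animals have less precision. No paired analysis was possible because animals in different states share no replicate number. The unknown depth and groups of 4 or 5 animals limit precision, and 3 of the 6 states come from 1 experiment only.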
